A study of Mus musculus with 3 samples.

Results

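The endoplasmic reticulum (ER) folding and stress genes described here are 38 genes. Most of their products carry new proteins into the ER, fold them, sense or answer a lag in folding, or send misfolded proteins to destruction. They were chosen by name, as genes of known function, from the 28692 gene identifiers of the deposited count table, and all 38 were found there. By role they are 6 sensors and transcription factors, 11 chaperones and co-chaperones, 6 disulfide and proline isomerases, 5 degradation genes and 9 genes of the translocon and signal peptidase. The calcium-binding protein gene Nucb2 is in none of these roles and stands alone. The rule that set the list already named high levels in the granulocyte clusters and a fall in the Myelo clusters. Counts of members in those directions are therefore a description and no independent evidence of the direction.

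The cells were bone marrow cells of wild-type C57BL/6 mice, sorted as a fraction labelled Modified GMP (GMP usually means granulocyte-monocyte progenitor). Marrow had been enriched on CD117 beads, so the late Myelo cells are those that passed this step and not a sample of whole marrow. There was 1 male and 1 female library of transcripts and 1 antibody library that pooled both sexes, and the labels name no allele, agent, age or number of mice. The authors gave each cell 1 of 17 cluster names. From these names 4 classes were formed: early (HSCP-1, HSCP-2 and Multi-Lin), Gran (Gran-1 and Gran-2), Myelo (Myelo-1 to Myelo-4) and monocytic (MDP, cMoP and Mono). All classes came from the same pair of libraries and share strain and genotype.

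The table holds 4336 female and 6796 male cells with 91448433 and 124967351 transcript counts (unique molecular identifiers, UMIs). Median depth was 21202 and 18687 UMIs per cell. Among the 4 classes it was highest in Gran, at 26494 and 21257, and lowest in Myelo, at 12502 and 12043. HSCP-1 (24 cells) and DC (33 cells) are too small for firm levels of single genes. The granulocyte names matched the marker genes: the summed level of the primary granule genes (Mpo, Elane, Prtn3 and others) was 54043 and 56841 counts per 1000000 UMIs (CPM) in Gran-2 and 4896 and 4546 in HSCP-2, in the female and male library. The 2 libraries shared 45 cell barcodes, and leaving their cells out moved the counts of members by at most 1 gene. It moved the calls over all genes most in Gran-2 against Gran-1, from 2073 higher and 1816 lower to 2252 and 2078. Of plasma cell and B cell markers, whose cells carry very high levels of ER genes, the summed CPM was 75.2 and 84.1 in Gran-1 but 93.7 and 1077 in Gran-2. A single male Gran-2 cell with 8597 Igkc, 1680 Jchain and 841 Ighm UMIs of 18224 made that difference, and no other cell had more than 3 Igkc UMIs. Counts of members were the same with and without it.

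Secreted, membrane and granule proteins enter the ER through the Sec61 channel, lose their signal peptide, and are folded by chaperones such as BiP (Hspa5) and by disulfide isomerases. When unfolded proteins accumulate, the membrane sensors IRE1 (Ern1), PERK (Eif2ak3) and ATF6 start the unfolded protein response. IRE1 splices the Xbp1 transcript, PERK slows translation and favours the making of ATF4 and then CHOP (Ddit3), and ATF6 is cut to release a transcription factor. XBP1 and ATF6 raise chaperone, isomerase and degradation genes, many of them through a promoter sequence known as the ER stress element. In the marrow, granulocyte precursors make large amounts of granule proteins at the promyelocyte stage, all of which pass through the ER. The assay counted 3′ transcript ends, so it read neither Xbp1 splicing nor the protein steps of the sensors.

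Promoter sequences of the members were read first, since the factors XBP1 and ATF6 act on many of these genes through a short element. RefSeq windows of 300 bases (250 before and 50 after the transcription start, build GRCm38.p6, the same assembly as mm10) were on hand for 33 of the 38 members. Both strands were searched for the ER stress element, spelled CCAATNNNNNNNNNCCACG, which has 10 fixed bases. It was found in 8 of 33 members (24.2%) and in 37 of 27025 genes with a window (0.137%), members included. With 1 mismatch allowed it was in 15 members (45.5%) and 466 genes (1.72%). Several members are textbook targets of this response, so these shares describe the list and test nothing. The matches are shown so that the element can be seen beside the expression of the genes that hold it. Each is written 5′ to 3′ on the strand of the gene with 10 bases on either side, and capitals mark the fixed bases, so a match on the other strand reads CGTGG first.
Hspa5: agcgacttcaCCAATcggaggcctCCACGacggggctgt
Hsp90b1: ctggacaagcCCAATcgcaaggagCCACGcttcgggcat
Hsp90b1: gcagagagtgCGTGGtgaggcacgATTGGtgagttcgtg
Calr: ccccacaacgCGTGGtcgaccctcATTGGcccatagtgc
Canx: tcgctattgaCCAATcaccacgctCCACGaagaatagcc
Creld2: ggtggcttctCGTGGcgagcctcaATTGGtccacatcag
Dnajc3: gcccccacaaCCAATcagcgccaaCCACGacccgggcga
Pdia6: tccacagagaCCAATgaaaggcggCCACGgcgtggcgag
Syvn1: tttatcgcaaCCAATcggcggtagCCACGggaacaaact

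Coordinates in this paragraph locate the printed stretches and not whole genes, and the strand is that of the gene. The genes were Hspa5 (BiP, the main ER chaperone, chr2:34772015-34772053 on the plus strand), Hsp90b1 (GRP94, chr10:86705628-86705666 and chr10:86705523-86705561, minus), Calr (chr8:84847065-84847103, minus) and Canx (chr11:50325790-50325828, minus), the lectin chaperones calreticulin and calnexin. The others were Creld2 (chr15:88819510-88819548, plus), Dnajc3 (chr14:118937817-118937855, plus), Pdia6 (chr12:17266481-17266519, plus) and Syvn1 (chr19:6046522-6046560, plus), the ubiquitin ligase of ER degradation. Hsp90b1 held a pair of matches, 1 on each strand. In every case the match lay before the start site, and the nearest ended 25 bases from it (Syvn1), the farthest 193 (Hsp90b1). The related element ATTGGNCCACG was in 2 members (6.06%) and 12 of all genes (0.0444%). They were Herpud1 (chr8:94386367-94386397, plus), which recruits the degradation machinery, and the BiP co-chaperone gene Dnajb11 (chr16:22857842-22857872, plus), where the match lay just after the start. Neither of these genes held an exact match to the longer element.
Herpud1: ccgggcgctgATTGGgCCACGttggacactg
Dnajb11: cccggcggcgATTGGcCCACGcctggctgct

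**Figure D1:**
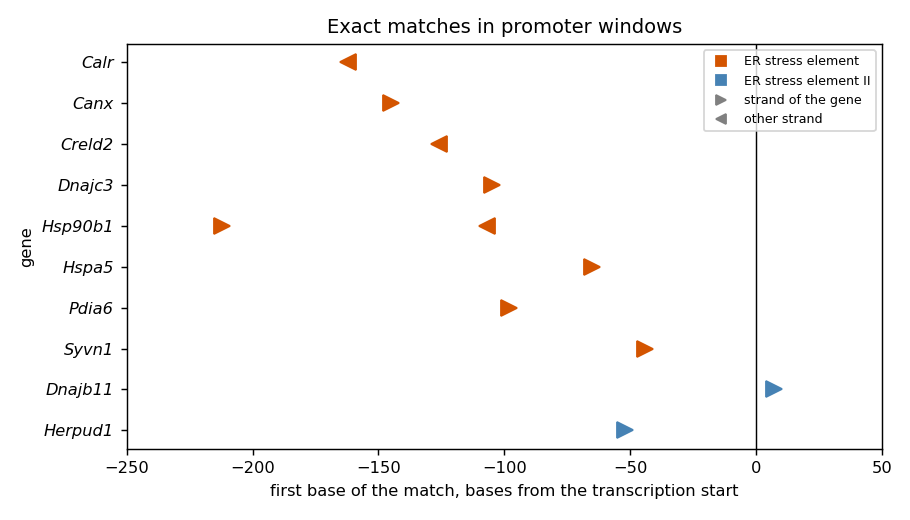
Position of each exact match in the promoter windows, in bases from the transcription start (x axis), by gene (y axis). Arrowheads to the right are on the strand of the gene and to the left on the other strand. All matches of the longer element lie before the start, and the Dnajb11 match lies after it.

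Across the 17 clusters, the summed level of the 38 genes was lowest in late Myelo cells and highest in Gran-1. In CPM of all transcripts (female and male library), the sum was 5004 and 5167 in HSCP-2, 9072 and 9588 in Multi-Lin, 10904 and 11514 in Mono and 13247 and 14090.1 in Gran-1. It was 12322 and 12869 in Gran-2, 7564 and 7935 in Myelo-1 and 3186 and 3198 in Myelo-2. Gran-1 lay above every other cluster in both libraries and stood 1.46-fold above Multi-Lin. MP (12219 and 13017), Gran-2 and IG2 (11929 and 12691) came next and overlapped with each other, ahead of Mono. Myelo-2, Myelo-3 (3059 and 3402) and Myelo-4 (2731 and 2873) were all below Eryth (4907 and 4989) and HSCP-2.

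CPM is a share, and in the Myelo clusters other transcripts take up more of it. The 50 most abundant genes of the data set, none of them a member, held 28.6% and 28.7% of UMIs in Gran-1 and 51.2% and 51.4% in Myelo-2. Against totals without those 50 genes, the member sum was 18555 and 19757 in Gran-1, 12336 and 13015 in Myelo-1 and 6526 and 6579.7 in Myelo-2. The fall from Gran-1 to Myelo-2 was then to 0.342 of the Gran-1 level, against 0.234 on all UMIs. Cells also became poorer in UMIs, from medians of 27602 and 22359 in Gran-1 to 13669.5 and 12673 in Myelo-2.

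**Figure D2:**
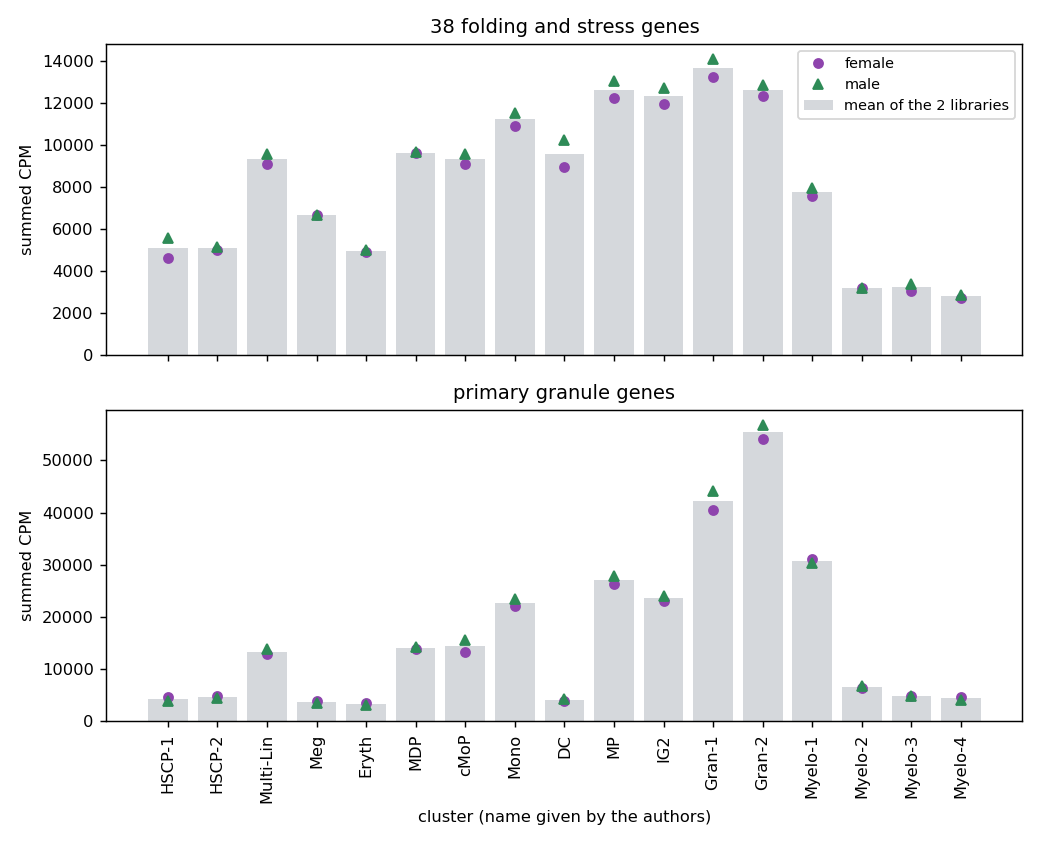
Summed CPM of the 38 genes (top) and of the 12 primary granule genes (bottom) in each cluster. Bars are the mean of the 2 libraries, and points are the female and male library. The member sum peaks in Gran-1 and the primary granule sum in Gran-2, and both are low from Myelo-2 on.

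Single genes mostly followed the sum. Of the 32 members with a mean of 20 CPM or more over the clusters, 19 (59.4%) were highest in Gran-1 or Gran-2, against 8.94% of the 4416 genes past the same level. Another 8 of the 32 (against 12.9% of all such genes) were highest in the small DC cluster, whose libraries differed widely: Hspa5 was at 539 and 909 CPM there, from 56 and 164 UMIs. Herpud1 stood out in DC at 231 and 166 CPM, against 78.1 and 83.3 in Gran-1, on 24 and 30 UMIs. The lowest cluster was one of the Myelo clusters for 27 of the 32 (84.4%), but also for 70.4% of all such genes. As a description over the 17 clusters, the correlation of log2(CPM + 1) of a member with the log2 sum of the others was above 0.9 for 21 members, led by Manf (0.98), Hsp90b1 (0.98) and Ssr4 (0.98). It was low for Ddit3 (-0.05), Eif2ak3 (0.02), Edem1 (0.27) and Nucb2 (0.35). Genes outside the list also passed 0.9 against the sum of all members, Atp5l (0.956) and Atp5e (0.952) among them. The share of all genes above 0.9 was not counted, so the 21 members only describe the list. The clusters share libraries and differ in depth.

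**Figure D3:**
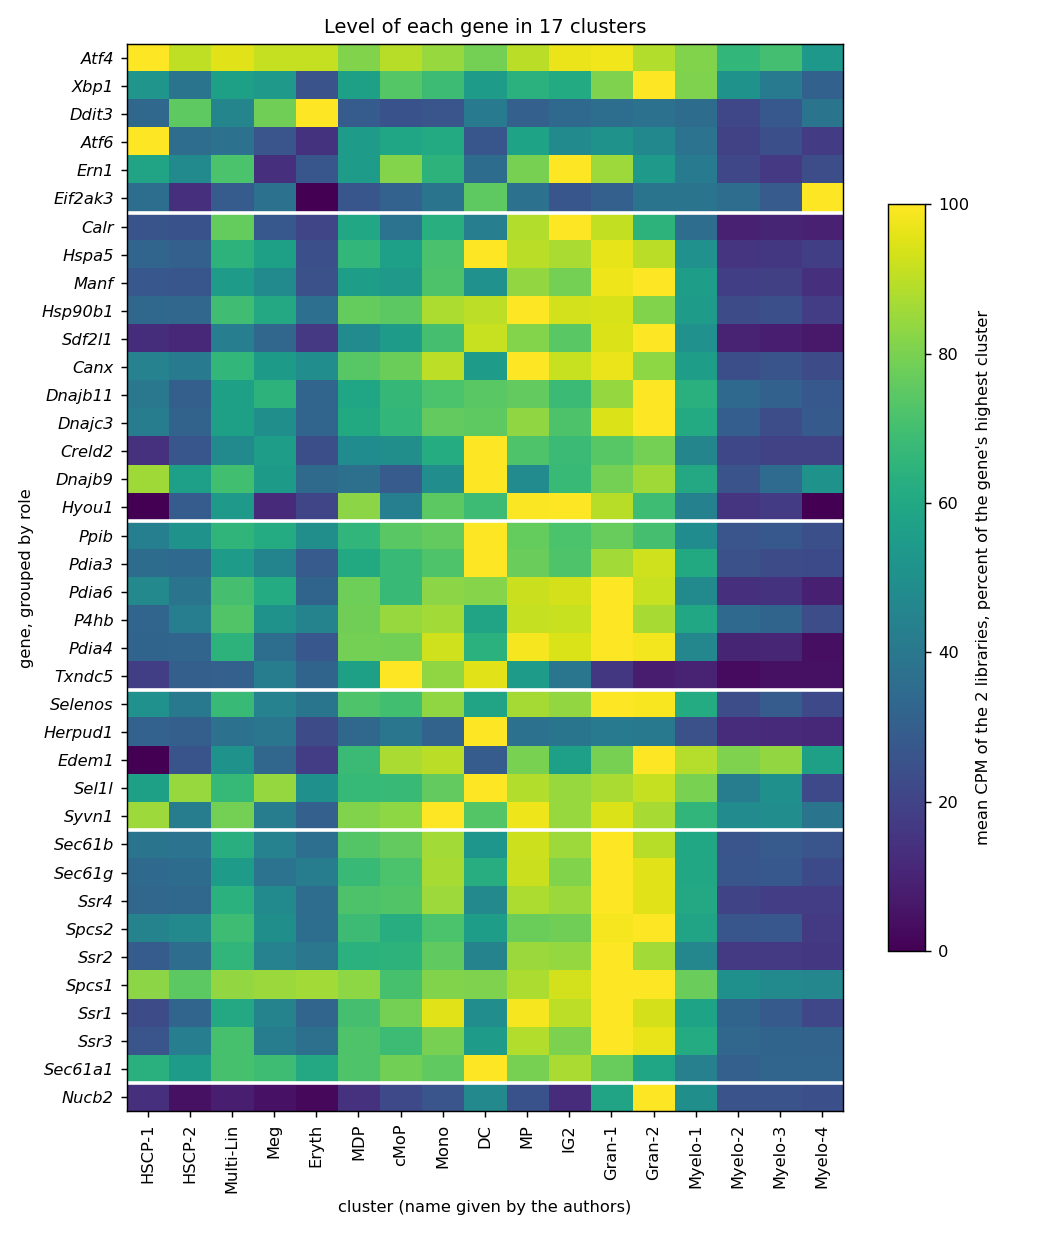
Mean CPM of the 2 libraries for each member (rows, grouped by role and split by white lines) in each cluster (columns), as a percent of the highest cluster of that gene. Most chaperone, isomerase and translocon rows are bright from MP to Gran-2 and dark from Myelo-2 on. Rows that depart from this include Txndc5, bright in cMoP, Ddit3, bright in Eryth, and Nucb2, bright in Gran-2 alone among the larger clusters.

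Some genes had a pattern of their own. Ddit3, the CHOP gene linked to prolonged stress, was highest in Eryth at 41.4 and 29.4 CPM (24 and 15 UMIs), followed by Meg (30.0 and 25.4), which overlapped Eryth, and HSCP-2 (26.9 and 26.5), which overlapped Meg. In Gran-1 it was at 12.1 and 13.6 and in Gran-2 at 12.4 and 14.0 CPM, below all 3. Txndc5, an ER protein with thioredoxin domains (chr13:38500266-38528824), was highest in cMoP (127 and 141 CPM), then Mono (112 and 112), with no overlap, and then MDP (84.6 and 68.5) and MP (76.4 and 71.6), which overlapped each other, while DC (96.2 and 161) spanned cMoP and Mono. Its level was 23.4 and 20.6 in Gran-1 and 9.14 and 11.0 in Gran-2. Nucb2 (nucleobindin 2, chr7:116504352-116540588) ran from 7.25 and 5.04 CPM in HSCP-2 and 11.4 and 11.0 in Multi-Lin to 70.1 and 86.6 in Gran-1 and 125 and 143 in Gran-2, with 63.4 and 70.2 in Myelo-1. Its Gran-2 values lay above both libraries of every other cluster. Xbp1 (chr11:5520641-5525993, coordinates of these 3 genes from RefSeq on GRCm38.p6) was likewise highest in Gran-2 (148 and 139.5 CPM), above Gran-1 (124 and 108) and Myelo-1 (119.6 and 112) in both libraries, and lowest in Eryth (32.8 and 41.1) and Myelo-4 (57.4 and 32.1), which overlapped.

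Set against its own level in Gran-1, each member had its own course. In Multi-Lin the 38 genes stood at a median of 69.0% (female) and 70.0% (male) of Gran-1. Atf4 (98.1% and 96.6%), Sec61a1 (91.5% and 92.8%) and Herpud1 (93.6% and 90.1%) were near the Gran-1 level there, while Sdf2l1 (47.4% and 43.3%) and Nucb2 (16.3% and 12.7%) were the only ones under 50% in both libraries. In the earlier HSCP-2 cells 26 members were under 50% in both libraries. The share of all genes under 50% was not counted for Multi-Lin or HSCP-2. Calr stood at 27.3% and 28.0% in HSCP-2 and 83.0% and 84.8% in Multi-Lin, and Hspa5 at 32.4% and 31.7% and 69.9% and 65.3%.

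On the way down, the medians were 60.5% and 60.8% of Gran-1 in Myelo-1 and 31.1% and 27.9% in Myelo-2. Against totals without the 50 most abundant genes they were 70.5% and 71.2%, and 45.5% and 41.0%. On all UMIs 5 members (Calr, Pdia4, Pdia6, Ssr2 and Ern1) were under 50% in both libraries in Myelo-1, and 30 were in Myelo-2. On the reduced totals these counts were 1 (Calr) and 22. Of the 32 members with a mean of 20 CPM or more, 84.4% were under 50% in Myelo-2 on all UMIs and 62.5% on the reduced totals, against 36.5% and 19.1% of all genes past that level. In Myelo-1 these shares were 12.5% and 3.1% of the 32 members, against 3.22% and 1.06% of all such genes. In Myelo-2 Calr was at 10.3% and 9.67%, Sdf2l1 at 11.0% and 10.4% and Pdia4 at 11.0% and 9.79%, the 3 lowest in both libraries, and Hspa5 at 16.6% and 14.6%. The members that held highest there were Eif2ak3 (110.1% and 123%), Edem1 (108% and 94.5%), Atf4 (66.8% and 68.6%) and Xbp1 (61.1% and 66.0%). Xbp1, Atf4 and Ddit3 (63.9% and 53.5%) each stood higher in Myelo-2 than every chaperone and isomerase, on either total, a comparison of percents with no test.

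The first comparison set Gran against the early cells. Nearly all members were higher in Gran: 36 of 38 rose, 1 (Txndc5) fell and 1 (Ddit3) did not pass, while 32.5% of the 12051 genes tested rose and 34.2% fell. The median log2 fold change of the members was 0.88, against -0.02 over all genes. Calls rest on edgeR's quasi-likelihood test of UMI sums per library and class, with Benjamini-Hochberg adjustment over all genes and a threshold of 0.05. Since nothing says how many mice gave each library, the p-values measure how alike 2 libraries were, which may be a technical likeness. How the authors drew the clusters is not given here, and where RNA was used the classes were not set independently of the genes tested. Against totals without the 50 most abundant genes, the median of all genes moved to -0.26, the split of all calls from 3912 higher and 4127 lower to 2184 and 6309, and that of members to 33 and 2, with a median of 0.63.

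Among the sensors and transcription factors 5 of 6 rose. Xbp1 was at 143 (female) and 129.9 (male) CPM in Gran and 71.7 and 68.9 in early cells (CPM beside a fold change carries the TMM scaling of its own fit), a log2 fold change of 0.95 ± 0.04 (SE), and the groups did not overlap. Atf4, which drives amino acid and redox genes, was at 125 (female) and 132 (male) CPM in Gran and 103 and 106 in early cells, a smaller difference of 0.30 ± 0.04. Atf4 did not pass against totals without the 50 most abundant genes (0.058). Ddit3 was at 13.3 (female) and 15.3 (male) CPM in Gran and 14.3 and 17.8 in early cells, overlapping between the groups (log2 fold change -0.17 ± 0.08, edgeR adjusted p = 0.0902). It fell once cells were thinned to 5000 UMIs (-0.53). Thinning left out the 137 cells of the data set with fewer UMIs and gave each kept cell the same weight. The part of either in this change was not tested. The sensor genes Atf6 (0.67 ± 0.11), Eif2ak3 (0.56 ± 0.16) and Ern1 (0.47 ± 0.10) rose at low levels of 2.54 to 12.1 CPM. Calls for Ern1 and Eif2ak3 were lost with DESeq2, and Ern1 stood at 0.00 when Gran-2 alone was compared.

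All 11 chaperones and co-chaperones rose, with log2 fold changes from 0.55 (Dnajb9) to 1.63 (Sdf2l1). Sdf2l1, which acts with the BiP co-chaperones, was at 614 (female) and 714 (male) CPM in Gran and 204 and 225 in early cells, 3.09-fold higher. Manf, an ER-resident protein released under stress, was at 743 (female) and 839 (male) CPM in Gran and 321 and 351 in early cells, 2.35-fold higher. Hspa5 itself was at 685 (female) and 829 (male) CPM in Gran and 363 and 419 in early cells (0.95 ± 0.03). In each of these genes both Gran values lay far above both early values. The lectin chaperone Calr rose less, by 0.59 ± 0.02 on the log2 scale. Multi-Lin cells held 1717 and 1931 unscaled CPM of it, 83.0% and 84.8% of the unscaled Gran-1 level.

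Of the 6 isomerases 5 rose, by 0.54 (Ppib, a proline isomerase) to 1.05 (Pdia3, which works with calreticulin and calnexin) on the log2 scale. The exception was Txndc5, at 21.4 (female) and 20.4 (male) CPM in Gran and 40.6 and 33.5 in early cells (log2 fold change -0.82 ± 0.06, SE), with no overlap. The 5 degradation genes rose, led by Edem1, a lectin that hands misfolded glycoproteins to the degradation machinery (1.13 ± 0.05). The 9 translocon and signal peptidase genes rose as well, from 0.37 for the channel subunit Sec61a1 to 1.21 for the small subunit Sec61g, which was at 1487 (female) and 1543 (male) CPM in Gran and 649.7 and 664 in early cells. The members' largest difference was that of Nucb2, at 92.5 (female) and 113 (male) CPM in Gran and 9.58 and 9.44 in early cells (10.9-fold, log2 fold change 3.44 ± 0.07). In all, 14 members rose by 2-fold or more, as did 5.83% of all genes tested.

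Other genes of the same pathway, in lists that hold none of the members and were set with earlier results known, were counted in the same fit. Of 23 translocation and glycosylation genes tested 21 rose and the others did not pass (median 0.64), among them Dad1 (0.82) and Ddost (0.78), subunits of the enzyme that attaches N-glycans. Of 21 ER to Golgi transport genes 19 rose and the others did not pass (median 0.55), with the cargo receptor genes Tmed2 (0.62) and Tmed9 (0.58) among the former. Oxidative folding genes rose in 11 of 13 cases and fell in 1, and Erp44, which retains client proteins, was up by 1.03. Glycan quality control and degradation genes split 11 up and 4 down of 19, and Vcp, the ATPase that pulls proteins out of the ER membrane, was at 0.00 (edgeR adjusted p = 0.982). Lists outside the ER had other counts. Targets of ATF4 and the integrated stress response fell in 12 of 21 cases and rose in 5 (median -0.17), with the amino acid transporter subunit Slc3a2 at -0.71. Heat shock genes (cytosolic ones, with the mitochondrial chaperonin genes Hspd1 and Hspe1) fell in 6 of 13 and rose in 3, with Hspa8 at -0.10.

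Set against monocytic cells, Gran cells were again higher in most members, by smaller amounts. Of 38 members 32 rose, 1 (Txndc5) fell and 5 (Atf6, Eif2ak3, Edem1, Syvn1 and Sec61a1) did not pass, against 25.7% of 11602 genes that rose and 25.4% that fell. The members' median log2 fold change was 0.34, and that of all genes -0.00. A difference of 2-fold or more upward was seen in 1 member (Nucb2) and 5.12% of all genes, and downward in 1 member (Txndc5) and 6.57%. Nucb2 led at 85.5 (female) and 104 (male) CPM in Gran and 30.6 and 32.4 in monocytic cells (3.01-fold). Dnajb9, a co-chaperone that steers BiP to the sensor IRE1, was at 30.1 (female) and 35.0 (male) CPM in Gran and 16.3 and 18.8 in monocytic cells, a log2 fold change of 0.89 ± 0.07. None of these genes overlapped between the classes. Sdf2l1 was at 567 (female) and 659 (male) CPM in Gran and 385 and 419 in monocytic cells (0.61 ± 0.02), and Manf at 686 (female) and 774 (male) CPM in Gran and 458 and 514 in monocytic cells (0.59 ± 0.02), also without overlap.

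Xbp1 was at 132 (female) and 119.9 (male) CPM in Gran and 96.9 and 92.5 in monocytic cells, 1.33-fold higher. Hspa5 was at 633 (female) and 765 (male) CPM in Gran and 459 and 528 in monocytic cells, 1.42-fold higher. Again neither overlapped. Atf4 rose by 0.24 ± 0.03, from 98.4 (female) and 103 (male) to 116 (female) and 122 (male) CPM. Ddit3 rose by 0.50 ± 0.10, from 8.55 (female) and 10.1 (male) to 12.3 (female) and 14.1 (male) CPM, a call not made by DESeq2. All 11 chaperones and 8 of 9 translocon genes rose. Txndc5 went the other way by the largest margin of any member, at 19.8 (female) and 18.8 (male) CPM in Gran and 105 and 107 in monocytic cells (5.52-fold lower, log2 fold change -2.47 ± 0.05). Ern1 rose in the sum of both Gran clusters (0.35 ± 0.11) but was at -0.10 with Gran-2 alone.

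The other lists were counted in the same fit. Translocation and glycosylation genes rose in 19 of 23 cases and ER to Golgi transport genes in 16 of 21, and the others of these lists did not pass. Oxidative folding genes rose in 9 and fell in 2 of 13 cases, and glycan quality control and degradation genes in 8 and 2 of 19. The exceptions in oxidative folding included Erp29, an ER chaperone, at -0.63. Integrated stress response targets rose in 3 and fell in 10 of 19. The heat shock genes rose in 2 and fell in 10 of 13, with Hspa8 at -0.24 and Hsp90ab1 at -0.15.

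Within the granulocyte branch, from Gran-1 to Gran-2, members moved in both directions. Of 38 members 13 rose and 9 fell, while 18.8% of 11004 genes rose and 16.5% fell. The median was 0.03 against -0.01 for all genes. Only Txndc5 changed by 2-fold or more, downward, as did 2.67% of all genes, while 2.08% rose as much. This comparison depended most on the settings. Against totals without the 50 most abundant genes the members split 9 higher and 16 lower (all genes 1623 and 2661, against 2073 and 1816), and the median turned to -0.04. Without the library as a block 4 rose and 4 fell, and DESeq2 called 7 and 2.

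At a mean of 20 CPM or more, the members with the largest changes kept their direction under all settings run. Nucb2 was at 127 (female) and 149.5 (male) CPM in Gran-2 and 67.2 and 85.0 in Gran-1 (1.81-fold, 0.86 ± 0.04). Edem1 was at 54.6 (female) and 58.7 (male) CPM in Gran-2 and 42.1 and 42.7 in Gran-1 (0.42 ± 0.05). Xbp1 was at 151 (female) and 146 (male) CPM in Gran-2 and 119 and 106 in Gran-1 (0.40 ± 0.04). In these genes both Gran-2 values exceeded both Gran-1 values. Dnajb11 was at 178 (female) and 194 (male) CPM in Gran-2 and 136 and 159 in Gran-1 (0.33 ± 0.03), also without overlap. On the other side Calr was 1.32-fold lower, at 1504 (female) and 1701 (male) CPM in Gran-2 and 1984 and 2234 in Gran-1. Its values did not overlap. Sec61a1 was at 58.4 (female) and 61.9 (male) CPM in Gran-2 and 73.8 and 73.2 in Gran-1 (-0.28 ± 0.05), Canx at 265 (female) and 246 (male) CPM in Gran-2 and 284 and 276 in Gran-1 (-0.14 ± 0.03), and Ssr2, a subunit of the complex beside the translocon, at 438 (female) and 470.3 (male) CPM in Gran-2 and 475 and 518 in Gran-1 (-0.13 ± 0.02). These 3 fell without overlap but did not pass with DESeq2.

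Hspa5 was at 613 (female) and 725 (male) CPM in Gran-2 and 610.2 and 742 in Gran-1, overlapping between the clusters (log2 fold change -0.01 ± 0.02, edgeR adjusted p = 0.593). It did not pass, nor did Atf4 (-0.06 ± 0.04) or Ddit3 (0.13 ± 0.10). Atf4 was at 106 (female) and 116 (male) CPM in Gran-2 and 114 and 118 in Gran-1, and Ddit3 at 12.6 (female) and 14.6 (male) CPM in Gran-2 and 11.6 and 13.3 in Gran-1. Below a mean of 20 CPM, Ern1 fell by 0.59 with an SE of 0.13, from 11.6 (female) and 11.0 (male) to 8.48 (female) and 6.73 (male) CPM, though not with DESeq2. Txndc5 fell from 22.5 (female) and 20.2 (male) to 9.30 (female) and 11.5 (male) CPM (log2 fold change -1.0 ± 0.11). Of its 127 UMIs in male Gran-2, 30 came from the single immunoglobulin-rich cell, and without that cell the change was -1.23.

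Counts for the other lists were split as well. Translocation and glycosylation genes rose in 9 and fell in 5 of 23 cases, ER to Golgi transport genes in 5 and 2 of 21, oxidative folding genes in 6 and 3 of 13, and glycan quality control genes in 7 and 3 of 19. Integrated stress response targets rose in 3 and fell in 6 of 17, with the serine synthesis gene Phgdh at -0.64. The heat shock genes rose in 2 and fell in 6 of 12. Genes of the primary granule list rose in 10 of 12 and fell in 1 (median 0.45).

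From Gran to Myelo cells most members fell. Of 38 members 32 were lower, 2 (Eif2ak3 and Edem1) were higher and 4 (Ddit3, Atf4, Xbp1 and Sel1l) did not pass, against 32.5% of 11473 genes that fell and 33.5% that rose. The members' median log2 fold change was -0.77, against -0.01 for all genes. Scaling moved the size of the fall: the member sum was 4598 and 5212 unscaled CPM in Myelo (female and male) against 12999 and 13787 in Gran, but 5593 and 6046 against 10765 and 11815 with the TMM factors of this fit. A fall of 2-fold or more with those factors was seen in 9 members and in 8.38% of all genes tested.

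The chaperones (11 of 11), isomerases (6 of 6) and translocon and signal peptidase genes (9 of 9) fell. Calr was at 481 (female) and 618 (male) CPM in Myelo and 1581 and 1813 in Gran, 3.10-fold lower (-1.63 ± 0.07). Pdia4, a disulfide isomerase, was at 35.4 (female) and 46.2 (male) CPM in Myelo and 111 and 131 in Gran (-1.57 ± 0.08). Sdf2l1 was at 168 (female) and 199 (male) CPM in Myelo and 466 and 547 in Gran (-1.46 ± 0.08). In all 3 genes the Myelo values lay far below the Gran values, with no overlap. Pdia6, another disulfide isomerase, was at 137 (female) and 169 (male) CPM in Myelo and 365 and 437 in Gran (-1.39 ± 0.08). Hspa5 was at 225 (female) and 268 (male) CPM in Myelo and 519 and 635 in Gran (2.34-fold lower). Smaller falls were those of Spcs1 (-0.25 ± 0.07), a signal peptidase subunit, and Nucb2 (-0.51 ± 0.07), which was at 51.2 (female) and 58.7 (male) CPM in Myelo and 70.2 and 86.2 in Gran.

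The sensors and transcription factors departed from this: 1 rose, 2 fell and 3 did not pass. All these values carry the TMM factors of this fit, with which the fall of the member sum was smaller than on unscaled CPM. Xbp1 was at 103 (female) and 98.2 (male) CPM in Myelo and 108 and 99.5 in Gran (log2 fold change -0.04 ± 0.07, edgeR adjusted p = 0.611), and Atf4 at 106 (female) and 105 (male) CPM in Myelo and 95.1 and 101 in Gran (0.10 ± 0.07, adjusted p = 0.197). Ddit3 was at 11.6 (female) and 12.4 (male) CPM in Myelo and 10.1 and 11.7 in Gran (0.13 ± 0.11, adjusted p = 0.269). For Xbp1 the 2 classes overlapped, and against Gran-2 alone Xbp1 fell (-0.33). On unscaled levels by cluster, Xbp1 was lower in Myelo-2 than in either Gran cluster. Ern1 (-0.99 ± 0.15) and Atf6 (-0.36 ± 0.14) fell at levels below 10 CPM. Eif2ak3 was at 5.01 (female) and 4.32 (male) CPM in Myelo and 3.21 and 2.88 in Gran (0.61 ± 0.19), a call lost with DESeq2 and with 1 sum per cluster. Edem1 was at 59.3 (female) and 51.2 (male) CPM in Myelo and 38.5 and 40.0 in Gran (0.49 ± 0.08), without overlap on this scale. Its call was lost with 1 sum per cluster (0.38). Txndc5 fell against both Gran clusters (-0.77 ± 0.11) but stood at 0.056 against Gran-2 alone.

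**Figure D4:**
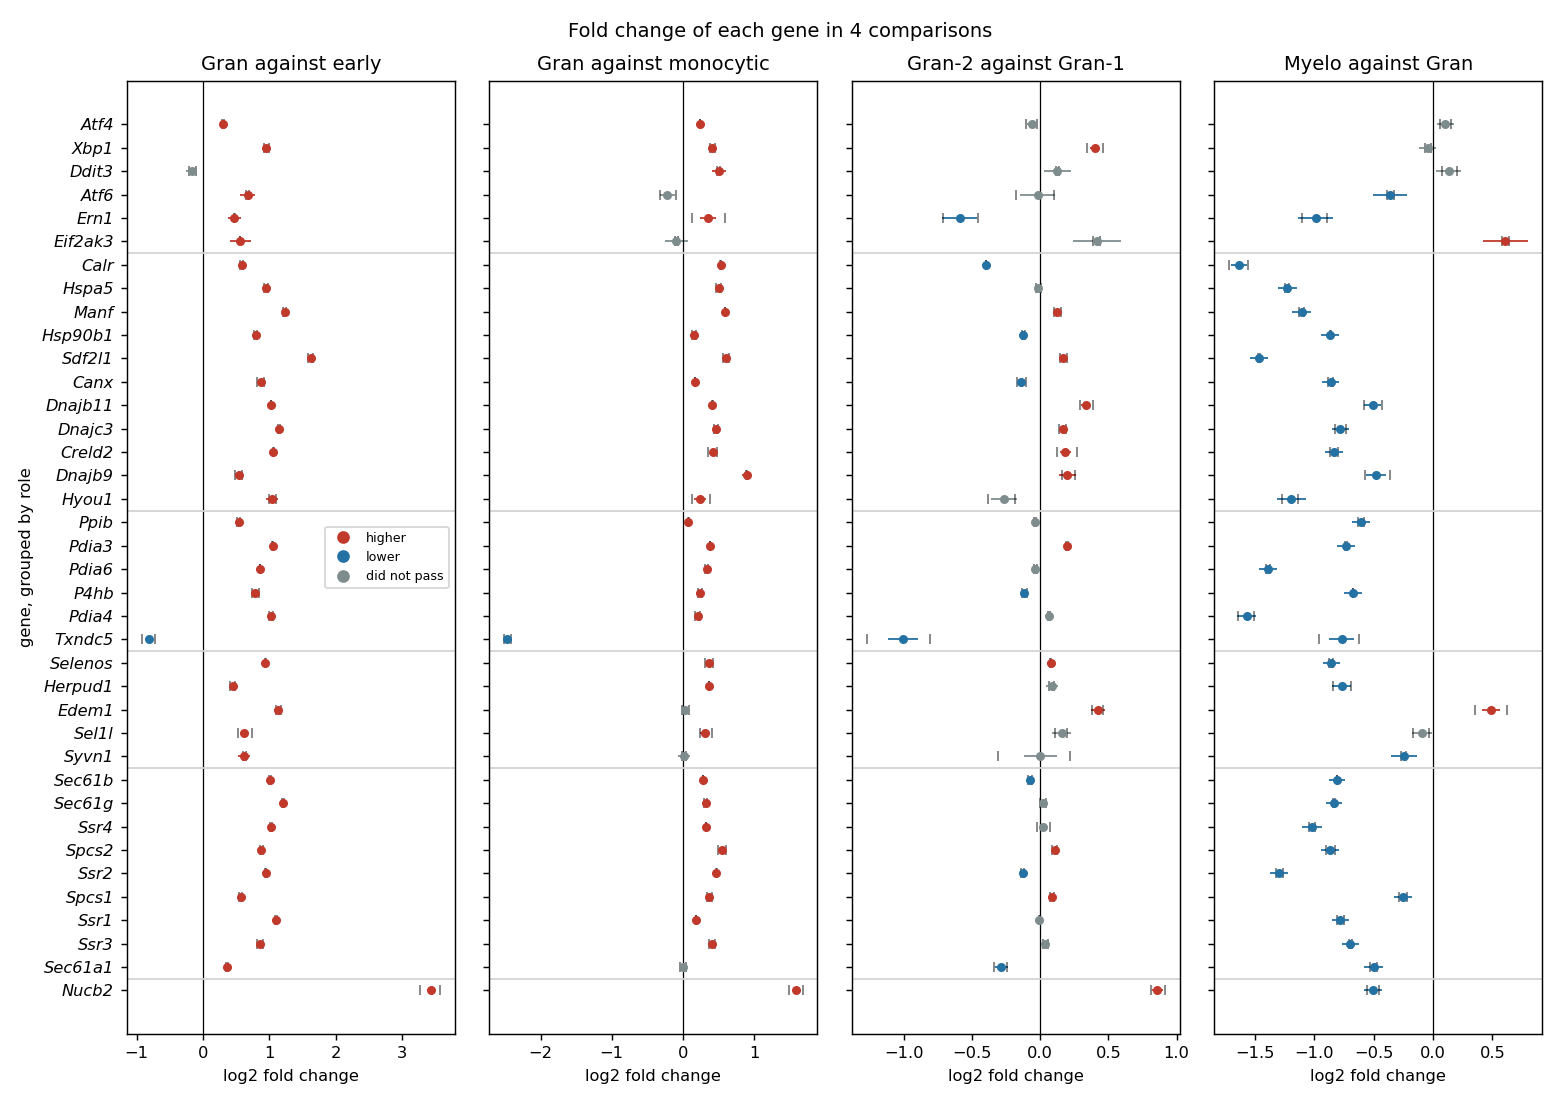
Log2 fold change of each member (rows, grouped by role) in 4 comparisons. Dots with bars are the edgeR estimate with its SE, ticks are the 2 libraries, red marks higher, blue lower and grey did not pass. Nearly all dots are right of 0 against early cells and left of 0 in Myelo against Gran, and they lie on both sides in Gran-2 against Gran-1.

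The scale matters within the Myelo clusters. On all UMIs, Edem1 ran from 53.7 and 56.1 CPM in Gran-2 to 47.5 and 41.2 in Myelo-2. Against totals without the 50 most abundant genes it ran from 77.2 and 81.0 to 97.2 and 84.7, so its direction depends on the total used. The same held for Atf4, which went from 104 and 111 to 79.2 and 82.5 CPM on all UMIs and from 150.1 and 160.2 to 162 and 169.8 on the other total. Pdia4 and Calr were lower on both totals. Pdia4 went from 133 and 150.0 to 14.8 and 15.1 CPM and from 191 and 217 to 30.2 and 31.0. Calr went from 1478 and 1625 to 212 and 220.3 CPM and from 2125 and 2347 to 435 and 453. Xbp1 was also lower in Myelo-2 than in Gran-2 on both totals. As a percent of its Gran-1 level it went from 119.5 and 128.7 to 61.1 and 66.0 on all UMIs. On the other total it went from 122.7 and 132.6 to 89.4 and 96.9.

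In the same fit, 19 of 23 translocation and glycosylation genes fell and 1 rose. The latter was Sec11c, a signal peptidase subunit (0.36). ER to Golgi transport genes fell in 19 of 21 and the others did not pass. Glycan quality control genes fell in 11 of 19 and rose in 1, and oxidative folding genes fell in 8 of 13 and rose in 3. Outside the ER, the heat shock genes also fell in 11 of 12 and rose in 1, with Hsp90ab1 at -1.20. Integrated stress response targets rose in 6 and fell in 6 of 18, with Phgdh at -1.63. Primary granule genes fell in 9 of 12, and all 15 G2/M genes rose. All 18 genes of the secondary granule list rose (median 5.57), a list that also holds S100a8, S100a9 and other neutrophil genes. The part of each of these in the fall of the members was not tested.

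The medians of members with and without an exact ER stress element were as follows. Against early cells the median log2 fold change was 0.87 for the 8 genes with the element and 0.88 for the 25 others with a window. Against monocytic cells it was 0.38 (7 of 8 rose) and 0.35 (22 of 25 rose, 1 fell). From Gran to Myelo it was -0.86 (8 of 8 fell) and -0.69 (19 of 25 fell, 2 rose). From Gran-1 to Gran-2 it was -0.02 (2 rose, 3 fell) and 0.08 (10 rose, 4 fell). No difference between these sets of genes was tested, and a match is only a string of letters.

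Surface CD11b, an integrin that neutrophils gain as they mature, gave an order of cells that did not come from the member list. In each library, Gran and Myelo cells were ranked by CD11b antibody count and split into 5 bins of equal size. From the lowest to the highest bin the summed member CPM was 13229, 13189, 11001, 5296 and 4551 in the female library. In the male library it was 14119.6, 14089.8, 13085, 7418 and 5389.6. On counts the level was flat over the lowest 2 bins and then fell, mostly between bins 3 and 4. The share of Gran cells fell alongside, from 100% to 1.15% and from 99.6% to 3.49%, so this order and the cluster names largely coincide. The shape depended on the scale. Ranked by the deposited log share of CD11b within the cell, the sums were 12687, 12260, 10623, 8045 and 4779 (female). In the male library they were 13493, 13296, 12311, 9755 and 5550. There the largest drop was between bins 4 and 5. With 2 libraries no exact test can go below p = 0.5, and none was run.

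Within the Gran cells alone the sum changed little over 5 bins of CD11b, from 13252 to 12157 CPM (female) and from 14096 to 12835 (male), but single members went apart. Nucb2 went from 49.9 to 116 (female) and 66.9 to 128 (male) CPM between the lowest and highest bin. Xbp1 went from 117 to 148 (female) and 98.1 to 131 (male), and Edem1 from 40.1 to 54.7 (female) and 38 to 53.8 (male). Thus these 3 were higher in Gran cells with high CD11b counts in both libraries. They also rose from Gran-1 to Gran-2, and the make-up of the bins by cluster was not counted. Gran cells alone were not binned by log share. In the log share bins of Gran and Myelo cells, Nucb2 was lower in bin 3 than in bin 1. It stood at 69.0 against 86.4 CPM (female) and 87.7 against 105 (male), with fewer Gran cells in bin 3 (58.9% and 76.1%). Xbp1 was at 123 against 124 and 113 against 112, Edem1 at 47.3 against 49.0 and 47.6 against 45.8. The values that follow are again those of the count bins within Gran cells alone. Calr went from 2173 to 1522 (female) and 2481 to 1679 (male), lower in CD11b-rich cells. Txndc5 was also lower there, going from 29.0 to 10.3 (female) and 27.9 to 12.4 (male). Hspa5 stayed between 602 and 641 CPM in the female and between 715 and 757 in the male library. Median depth of these bins was 24858 to 27808 and 20801 to 22054 UMIs per cell. Each bin held 237 to 238 female and 427 to 428 male cells, and cells of a library are not replicates.

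**Figure D5:**
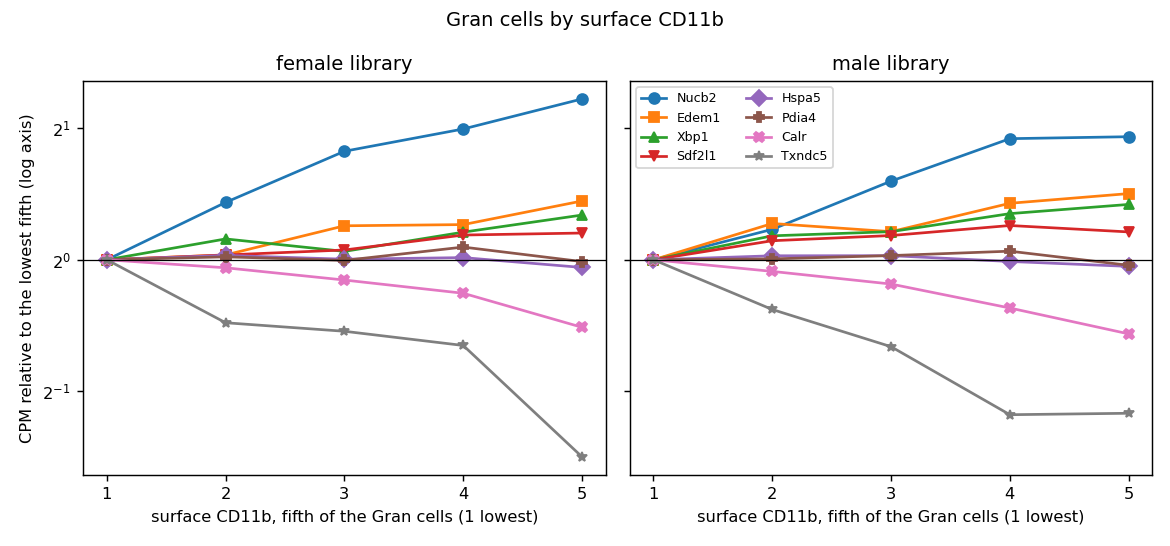
CPM of 8 members in Gran cells (y axis, relative to the lowest bin, log axis) against 5 bins of surface CD11b antibody count (x axis), for the female and the male library. Points are sums over the cells of a bin. Nucb2 climbs and Txndc5 and Calr descend in both libraries, while Hspa5 and Pdia4 stay near 1.

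The member sum and the primary granule sum followed each other across clusters (Pearson r = 0.76 over 17 clusters on the log2 scale, a description). They parted at the peak: from Gran-1 to Gran-2 the member sum went from 13247 and 14090.1 to 12322 and 12869 CPM and the granule sum from 40422 and 44195 to 54043 and 56841. Cell by cell, the rank correlation between the 2 shares of UMIs was 0.78 and 0.76 (female and male) in Multi-Lin, on 686 and 1066 cells, and 0.64 and 0.62 in Myelo-1, on 194 and 365 cells. In Gran-1, on 832 and 1541 cells, the rank correlation was 0.22 and 0.16, too weak to read. How widely the cells of each cluster spread on the 2 shares was not compared, and its part was not tested. In Multi-Lin the member share also went with depth, at 0.40 and 0.28, whose part in the relation was not tested. Among 4384 genes outside the list with a mean of 20 CPM or more, the patterns most like the member sum over the 17 clusters were those of Tmem258 (r = 0.982), Cope (0.970), Ddost (0.969), Erp44 (0.968) and Mydgf (0.966). Tmem258 and Ddost encode subunits of the enzyme that attaches N-glycans.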

How the data were processed

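Unique transcript counts per gene and cell were deposited by the authors for 2 mRNA libraries, with CD11b antibody counts, their natural log share within the cell and a cluster name per cell. Per the submitters' processing notes, Cell Ranger 2.1.0 and build mm10 were used; what was done about cell filters, clustering and doublets is not given in the sources here, and no doublet caller was run. The members and all other lists were chosen with earlier results of these data known.

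Counts were summed per library and class. edgeR 4.0.16 (R 4.3.3) fitted 4 sums per comparison with class and library terms, TMM factors and its low-count filter, leaving 1 residual degree of freedom, with the spread shared among genes. Benjamini-Hochberg adjusted p under 0.05 was the call. All 38 members passed the filter in every comparison. DESeq2 1.42.0 and the other alternatives are in the closing section. SE is the log2 fold change over the root of F. The fit was tested on simulated data. Levels by cluster are unscaled CPM. CPM beside fold changes carries the TMM factors of its own fit, so the 2 kinds can differ in size: from Gran to Myelo the ratio of the member sums was 0.354 and 0.378 unscaled (female and male) and 0.520 and 0.512 with TMM. The library pairs the sums, since both classes come from the same 2 libraries. Rows without a symbol (353 of 28692, 0.0230% of UMIs) stayed in totals.

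Values per library are given for Xbp1, Hspa5, Atf4, Ddit3 and Nucb2 and for the 4 members with the largest change each way whose mean reached 20 CPM and whose libraries shared a sign. At most 3 genes of each other list are named, those with the highest mean CPM. Depth was 91448433 and 124967351 UMIs. Promoter windows came from RefSeq (GRCm38.p6), matched by symbol for 33 members.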

Additional observations from a re-analysis of the deposited data

Results flagged for a closer look

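In 8 cases the 2 libraries moved in opposite directions under the same contrast, and none of these members passed the test of the contrast itself. The difference between the libraries was not tested, since each sex has 1 library. In Gran against monocytic cells the log2 ratio of Edem1 was -0.01 (female) and 0.08 (male). For Syvn1 it was -0.02 (female) and 0.05 (male), and for Sec61a1 0.04 (female) and -0.04 (male). All 3 lie close to 0.

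In Gran-2 against Gran-1 the log2 ratio of Hspa5 was 0.01 (female) and -0.03 (male). For Ssr4 it was 0.07 (female) and -0.02 (male), and for Sec61g 0.04 (female) and -0.00 (male). The widest gaps were those of Syvn1, with -0.31 (female) and 0.22 (male), and of Atf6, with -0.17 (female) and 0.10 (male).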

How the results depend on the processing

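The members' medians kept their sign under every alternative run in 3 of the 4 comparisons. Against early cells the median was 0.91 with DESeq2, 0.90 with RLE scaling, 0.63 against totals without the 50 most abundant genes, 0.91 without a low-count filter, 0.92 with cells thinned to 5000 UMIs, 1.23 with 1 sum per cluster, and 0.85 or 0.85 with Gran-2 or Gran-1 alone. In the female library alone it was 0.91 and in the male 0.88. Members lower numbered 2 with the reduced totals, the thinned cells or Gran-1 alone. Against monocytic cells the medians were 0.36 (DESeq2), 0.32 (reduced totals), 0.36 (no filter), 0.32 (thinned), 0.44 (1 sum per cluster) and 0.32 (Gran-1 alone). There 2 members were lower with reduced totals or Gran-2 alone, and Ern1 turned to -0.10 with Gran-2 alone. From Gran to Myelo they were -0.85 (reduced totals), -0.83 (no filter), -0.86 (thinned) and -0.92 (1 sum per cluster). Members higher there numbered 1 with DESeq2 or Gran-2 alone and 0 with 1 sum per cluster (edgeR, 2 at an unadjusted p under 0.05), and Txndc5 turned to 0.056 with Gran-2 alone.

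Gran-2 against Gran-1 was the least stable. The median was 0.036 with DESeq2, 0.037 with RLE scaling, -0.039 with reduced totals, 0.019 without a filter, -0.00393 with thinned cells, and 0.059 to 0.064 in 1 library alone. DESeq2 called 7 higher and 2 lower, and reduced totals 16 lower. Sec61g turned to -0.048 with reduced totals. With thinned cells Selenos turned to -0.025, Spcs1 to -0.00458 and Dnajb9 to -0.00724. The cause was not tested.

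The library served as a replicate block that pairs the sums. With no replicate block 4 members rose and 4 fell in Gran-2 against Gran-1, 25 rose and 1 fell against monocytic cells, and the median there was 0.33. It ended 1 other call, that of Syvn1 in Myelo against Gran.

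The summed level of Gran-1 over Multi-Lin was 1.52 without the 2 members with most UMIs, 1.5 with reduced totals and 1.57 as the median cell share. Over Mono it was 1.19, 1.24 and 1.23. Gran-2 over Gran-1 was 0.922, 0.971 and 0.948 as reported, without those 2 members and with reduced totals, and Myelo-2 over Gran-1 0.234, 0.259 and 0.342. The highest over the lowest CD11b bin was 0.394 on the log share scale and 0.363 on counts, and 45.5% of members held the ER stress element with 1 mismatch allowed.

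Genes under about 10 CPM (Ern1, Eif2ak3, Atf6) rest on few UMIs, and with 1 library per sex no p-value covers differences between mice. Settings that leave 1 library have no test.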

Other observations

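The male Gran-2 cell with 8597 Igkc UMIs also held 1680 Jchain, 841 Ighm, 11 Mzb1, 30 Txndc5 and 10 Xbp1 UMIs, beside 61 UMIs of primary granule genes. Its 38 ER genes together held 156 of its 18224 UMIs, or 0.856%, a share lower than in all but 1.84% of the male Gran-2 cells. The Igkc, Jchain and Ighm UMIs make up most of that total and lower this share. A share without them was not computed, so the rank does not show that the cell is poor in ER genes.

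Within Gran-2, on 355 and 598 cells, the share of UMIs in the 38 genes had a rank correlation of 0.26 and 0.28 with the share in primary granule genes (female and male), and of -0.05 and -0.07 with the share in G2/M genes. In Myelo-2, on 340 and 373 cells, the relation with primary granule genes was 0.09 and 0.17. In Mono it was 0.28 and 0.38 on 450 and 602 cells. These describe cells of 1 library each and share depth and library as sources.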
